A study of Homo sapiens with 4 samples.

Results

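The 3 enzymes that make serine from a glycolytic intermediate, PHGDH, PSAT1 and PSPH, were followed in 2 human cancer lines transfected with miR-891b, a microRNA. They were taken by name, as every gene probe of the array that carries one of the 3 symbols. Each symbol had 1 probe printed at 1 spot, so the enzymes were 3 of 43317 gene names and 3 of 58201 gene probes. PHGDH, PSAT1 and PSPH were well above background on all 4 arrays, by the mark that the scanner software sets.

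The series is about PSAT1, the release of extracellular vesicles and bone metastasis. Its 4 groups, each of 1 array, were HCT116 cells given NC1 (a negative control RNA), HCT116 cells given miR-891b, A549 cells given NC1 and A549 cells given miR-891b. The HCT116 line comes from a colorectal cancer and the A549 line from a lung cancer. Both RNAs were delivered with the lipid reagent Dharmafect1, so every group, the controls included, carries the transfection itself. The growth text names McCoy's 5A and DMEM for HCT116 and A549, so the medium may differ with the line, and no RNA dose or time after transfection is given in the sources used here. From each culture 100 ng of total RNA was labelled with Cy3 and read on 1-colour Agilent arrays. Both arrays of a line lay on 1 slide, so that line, slide and medium cannot be told apart. With 1 array per group no change within a line has a spread between cultures, and no p-value is given for one. In RNA from whole cultures, fewer expressing cells and less RNA per cell cannot be told apart.

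PHGDH oxidises 3-phosphoglycerate drawn from glycolysis and so starts the pathway. PSAT1 moves an amino group from glutamate onto the product, which yields phosphoserine and 2-oxoglutarate, and PSPH removes the phosphate to leave serine. Serine feeds glycine, one-carbon units, phospholipids and sphingolipids, and in many cancer cells the genes of the pathway are driven by the stress-responsive transcription factor ATF4.

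A microRNA recognises its targets mainly through the seed, bases 2 to 8 from its 5′ end. The mature miR-891b is printed first, from the RefSeq annotation of GRCh38.p14 (chrX:146001100-146001121, minus strand, 22 bases), with the seed in capitals. Below it is the stretch of the PSAT1 probe (hg19 chr9:80944793-80944822, plus strand) that holds a partial match to this seed. The capitals there mark AAGTTG, the letters that pair with miRNA bases 3 to 8.
hsa-miR-891b: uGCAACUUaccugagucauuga
PSAT1 probe, 30 of its 60 bases: aggtagaagagaAAGTTGattggttggttg
The full 7-letter match to bases 2 to 8, AAGTTGC, occurred in 0 of the 3 enzyme probes and in 229 of all 58201 gene probes (0.393%). The 6 letters AAGTTG occurred in 1 of the 3, that of PSAT1, and in 1107 of all gene probes (1.90%). A probe reads only 60 bases of a transcript, and the rest of each mRNA was not analysed here. The matches were sought in the probe's own strand as deposited. They describe letters and do not show a site in use.

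The PHGDH values below all rest on a single spot. Its probe lies at hg19 chr1:120285529-120285588, plus strand, and starts at base 1535 of its transcript in the array's annotation. The PSAT1 probe lies at hg19 chr9:80944778-80944837, plus strand, from transcript base 2024, and the PSPH probe at hg19 chr7:56078799-56078858, minus strand, from transcript base 2003. Which of these stretches is coding and which untranslated was not analysed here.

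The labels were checked against genes that mark the 2 lines. Log2 differences on the NC1 arrays (A549 minus HCT116) were 12.2 for AKR1B10, an aldo-keto reductase, and 7.89 for ALDH3A1, an aldehyde dehydrogenase. They were -5.23 for the intestinal factor CDX2 and -4.92 for the epithelial antigen EPCAM. Some listed markers went against the labels. The lung factor NKX2-1 was well above background in HCT116 and not in A549, the intestinal genes CDH17, VIL1 and LGALS4 were so in A549 and not in HCT116, and the surfactant gene SFTPB had no signal well above background in either line. Of 7 fibroblast markers, 2 were measured in HCT116 and 4 in A549, while COL1A2, COL3A1 and DCN had no signal well above background in either. LUM changed by 2.14 and THY1 by -1.04 in A549, and their part in the enzyme changes was not tested. AKR1B10 changed by 4.47 with miR-891b in HCT116. The array scales were close, with a 75th percentile signal of 54.9 to 74.8 and 44.7% to 50.3% of gene probes well above background on each array, and no gene spot was saturated.

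All 3 enzymes were lower with miR-891b than with NC1 in both lines. The differences were largest for PSAT1 and PHGDH in A549 and smallest for PSPH in HCT116. Levels are given as log2 of the background-corrected signal minus the array's 75th percentile over gene probes, and a change is the level with miR-891b minus that with NC1. The error of a change, 1 SD, comes from the scanner software's error model, which presets a relative error of 0.1 per spot and so gives nearly the same SD for every bright spot. It covers the spot and the scan, not cultures or labelling.

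PHGDH, the first enzyme, had a signal of 1599 in HCT116 NC1, 879 in HCT116 miR-891b, 218 in A549 NC1 and 76.7 in A549 miR-891b. On the log2 scale its levels were 4.86, 3.95, 1.54 and 0.047 in the same order. Both HCT116 arrays were above both A549 arrays, and within each line the miR-891b array was the lower one. PHGDH changed by -0.92 (error SD 0.20) in HCT116, which left 52.9% of the control level. In A549 it changed by -1.50 (error SD 0.21), which left 35.5%. With normexp and quantile normalization the A549 change was -0.89, short of 2-fold.

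PSAT1, the aminotransferase and the gene the series is named for, had a signal of 4080 in HCT116 NC1, 2419 in HCT116 miR-891b, 4043 in A549 NC1 and 1340 in A549 miR-891b. The corresponding log2 levels were 6.22, 5.41, 5.76 and 4.17. On this scale the A549 NC1 level lay between those of the HCT116 arrays, and the A549 miR-891b array was the lowest of the 4. PSAT1 changed by -0.81 (error SD 0.20) in HCT116, to 57.1% of control, and by -1.58 (error SD 0.20) in A549, to 33.4%.

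PSPH, the phosphatase of the last step, had a signal of 2623 in HCT116 NC1, 2266 in HCT116 miR-891b, 1200 in A549 NC1 and 794 in A549 miR-891b. Its log2 levels were 5.58, 5.31, 4.004 and 3.42. The HCT116 pair lay within 2 error SDs of each other, and both HCT116 arrays were above both A549 arrays. PSPH changed by -0.27 (error SD 0.20) in HCT116, to 83.2% of control, and by -0.58 (error SD 0.20) in A549, to 66.7%. In units of the error SD, the PSPH changes were -1.30 in HCT116 and -2.87 in A549. Those of PHGDH were -4.50 and -7.28, and those of PSAT1 were -3.96 and -7.75.

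**Figure D1:**
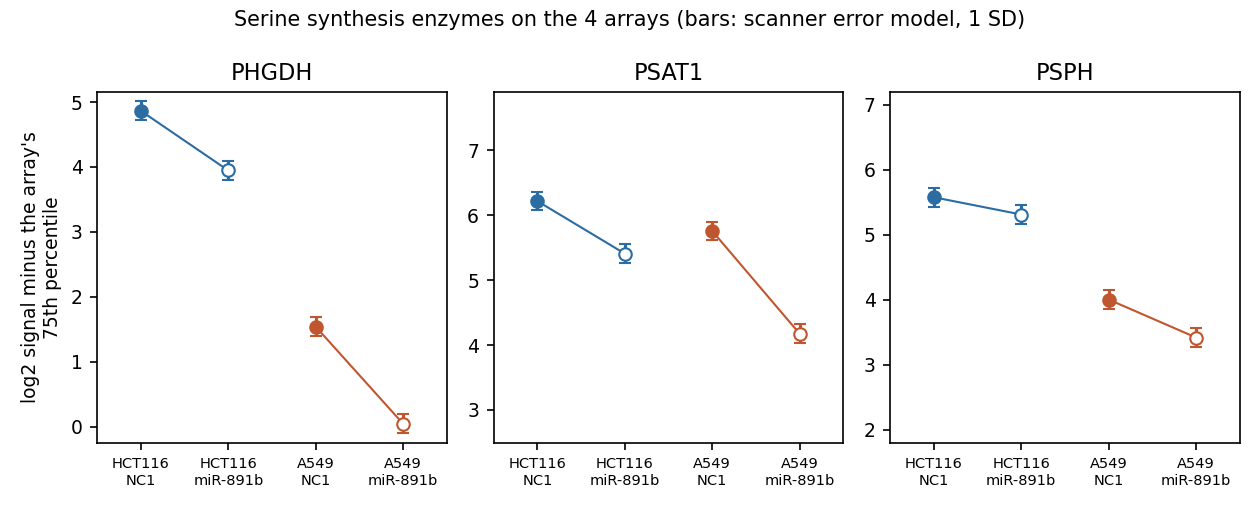
Log2 signal minus the array's 75th percentile (y axis) for PHGDH, PSAT1 and PSPH on each of the 4 arrays, with NC1 as filled points, miR-891b as open points, HCT116 in blue and A549 in orange, and bars of 1 SD from the scanner error model. Each line falls from the NC1 to the miR-891b point in all 3 panels, from 6.22 to 5.41 and from 5.76 to 4.17 for PSAT1, and the PHGDH points of A549 lie below those of HCT116.

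The changes were set against all genes measured on both arrays of a line, where measured means well above background on both. At a threshold of 2-fold, 0 of the 3 enzymes were lower in HCT116, where 0.853% of 19108 genes were, and none was higher. In either direction 2.01% of genes passed it. PHGDH and PSAT1 were 1.89-fold and 1.75-fold lower there, short of the threshold. In A549, 2 of the 3 enzymes, PHGDH at 2.82-fold and PSAT1 at 2.99-fold, were at least 2-fold lower, against 5.57% of 21337 genes. None of the 3 was at least 2-fold higher in A549, where 9.57% of genes passed the threshold in either direction. PSPH, with 83.2% and 66.7% of control, was short of the threshold in both lines.

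Counted from the most lowered gene, PHGDH was at position 238 of 19108 in HCT116 (1.24% of genes) and 397 of 21337 in A549 (1.86%). PSAT1 was at position 378 in HCT116 (1.97%) and 329 in A549 (1.54%). PHGDH and PSAT1 thus stood in the lowest few percent in both lines, whereas PSPH, at position 4380 in HCT116 (22.9%) and 3259 in A549 (15.3%), stood nearer the middle. The median change over all measured genes was -0.041 in HCT116, with an SD over genes of 0.39, and -0.058 in A549, with an SD of 0.61.

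Over the 18065 genes measured in both lines, a drop of at least 2-fold in each line was seen for 0.0886%, and for 0 of the 3 enzymes, none of which passed 2-fold in HCT116. By any amount, 33.8% of these genes were lower in both lines, and 3 of 3 enzymes were. Counting PHGDH itself, 11 genes (0.0609%) were at least as low as PHGDH in both lines at once, and 15 (0.0830%) were at least as low as PSAT1. For PSPH the count was 924 (5.11%). The genes at least as low as PHGDH in both lines included the secreted protease inhibitor SLPI, the sulfotransferase SULT2B1 and the nuclear receptor NR4A3.

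**Figure D2:**
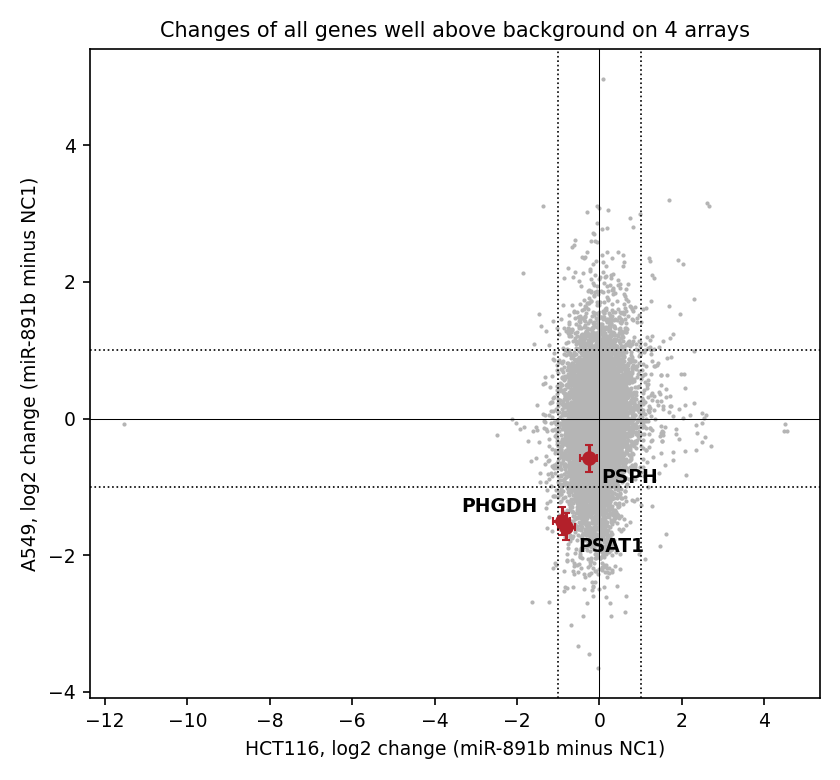
Log2 change with miR-891b in HCT116 (x axis) and in A549 (y axis) for the 18065 genes measured in both lines (grey), with the 3 enzymes in red and bars of 1 SD from the scanner error model. Dotted lines mark 2-fold. PHGDH (-0.92, -1.50) and PSAT1 (-0.81, -1.58) lie together at the lower left edge of the cloud, past the A549 line and short of the HCT116 line, and PSPH (-0.27, -0.58) lies inside it.

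The changes of PHGDH and PSAT1 lay within 1 error SD of each other in each line. PSAT1 minus PHGDH was 0.11 in HCT116 and -0.087 in A549, each with an error SD of 0.29. In A549 this did not hold with normexp and quantile normalization, where PSAT1 minus PHGDH was -0.50. PSPH changed least in both lines. PSAT1 minus PSPH was -0.54 in HCT116 and -0.998 in A549, and PHGDH minus PSPH was -0.65 and -0.91, all with the same error SD. These gaps were past 2 error SDs except PSAT1 minus PSPH in HCT116, at -1.88 error SDs. Every enzyme changed more in A549 than in HCT116. The A549 change minus the HCT116 change was -0.77 for PSAT1, -0.58 for PHGDH and -0.32 for PSPH (error SD 0.29 each). With normexp and quantile normalization that of PHGDH shrank to -0.045. With 1 array per group this difference between the lines was not tested. Over all measured genes the SD of changes was also larger in A549.

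The 2 lines were then taken as the only repeats of the transfection, in an additive limma fit over 22717 genes with a cell line term and 1 residual degree of freedom. The mean change over both lines was -1.21 (SE 0.27) for PHGDH, with a 95% interval of -1.95 to -0.47. For PSAT1 it was -1.20 (SE 0.30), with an interval of -2.01 to -0.38. For PSPH it was -0.43 (SE 0.24), with an interval of -1.09 to 0.24 that includes 0. The Benjamini-Hochberg adjusted p from limma was 0.794 for PHGDH, PSAT1 and PSPH alike, and it ranged from 0.402 to 1.00 over the alternatives. The limma fit called 0 of the 22717 genes at an adjusted p under 0.05, and 1210 had an unadjusted p under 0.05. PHGDH (unadjusted p = 0.0102 in limma) and PSAT1 (0.0148 in limma) were among these, and PSPH (0.153 in limma) was not. A count of 1210 in 22717 is close to what this threshold passes when no gene changes. Being among these genes therefore does not set PHGDH and PSAT1 apart.

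Levels of each enzyme in the lines were compared on the same probe. PHGDH was 10.0-fold higher in HCT116 than in A549 on the NC1 arrays (A549 minus HCT116 -3.32) and 14.9-fold higher on the miR-891b arrays (-3.90). Its order was HCT116 NC1, HCT116 miR-891b, A549 NC1, A549 miR-891b, and each neighbouring pair was at least 4.50 error SDs apart. PSPH had the same order and was 2.98-fold higher in HCT116 on the NC1 arrays (-1.57) and 3.72-fold higher on the miR-891b arrays (-1.89). PSAT1 differed least between the lines, with HCT116 higher by 1.37-fold on the NC1 arrays (-0.46) and by 2.35-fold on the miR-891b arrays (-1.23). The NC1 difference of PSAT1 depends on the scale. Before scaling, its signals were 4080 in HCT116 NC1 and 4043 in A549 NC1. The difference was -0.25 with quantile normalization and -0.33 with normexp and quantile normalization. Its order was HCT116 NC1, A549 NC1, HCT116 miR-891b, A549 miR-891b, where the middle pair was 1.71 error SDs apart. The first pair of PSPH, HCT116 NC1 and HCT116 miR-891b, was 1.30 error SDs apart. On that scale those 2 pairs were the only neighbours less than 2 error SDs apart.

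The PHGDH spot lay in row 175 and column 4, where the HCT116 miR-891b array carried stray signal. Of the spots around it that were dim on the other 3 arrays, 12.03% had the mark of signal well above background on this one, against 0% on HCT116 NC1 and 3.31% on each A549 array. The spot's pixels varied by a CV of 12.8% on that array and 13.5% on HCT116 NC1, and the local background was 17 on both. The 120 measured spots around it had a median change of -0.0078 in HCT116, and 131 around it had -0.15 in A549. The part of the stray signal in the PHGDH change of HCT116 was not tested. The PSAT1 and PSPH spots lay outside such areas on all 4 arrays, with 0% to 5.41% of dim neighbours marked. The spots around PSAT1 had a median change of -0.019 in HCT116 and -0.14 in A549, and those around PSPH had -0.062 and -0.082.

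The array also held probes for pseudogenes of PSAT1 and PSPH, which are untranslated copies of the enzyme genes. PSAT1P1 had log2 levels of 1.12 in HCT116 NC1, 0.16 in HCT116 miR-891b, 0.80 in A549 NC1 and -0.82 in A549 miR-891b. It changed by -0.96 in HCT116 and -1.62 in A549. PSAT1P3 had levels of -0.77, -1.56, -0.61 and -1.94 in the same order, with changes of -0.80 and -1.33. Both thus had changes close to those of the parent probe, and whether these probes bind the parent's mRNA was not tested. PSAT1P2 had no signal well above background on the 4 arrays. PSPHP1, a copy of PSPH, had levels of 4.198 and 4.03 in HCT116, a change of -0.17, and was not well above background in A549. It was at least 285-fold higher in HCT116 than in A549 on the NC1 arrays, taking as the bound the dimmest A549 NC1 probe that had the mark of signal well above background (measured levels 4.198 and -6.12). Whether the PSPH probe also binds RNA of PSPHP1, which would enter the HCT116 levels and change of PSPH, was not tested. The PSPHP1 probe also holds AAGTTG. The 2 long noncoding RNAs named for the PHGDH locus, lnc-PHGDH-1 and lnc-PHGDH-2, were not well above background on any array.

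**Figure D3:**
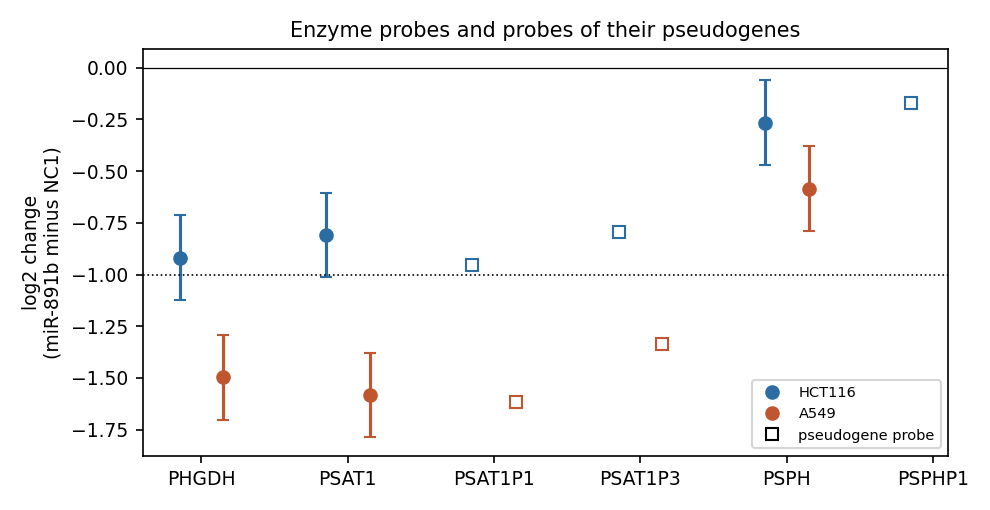
Log2 change with miR-891b (y axis) for the enzyme probes (circles, bars of 1 SD from the scanner error model) and for pseudogene probes (open squares, no bars) in HCT116 (blue) and A549 (orange), with the dotted line at 2-fold lower. The PSAT1P1 squares (-0.96 and -1.62) and the PSAT1P3 squares (-0.80 and -1.33) lie near the PSAT1 circles (-0.81 and -1.58), and PSPHP1 has a value in HCT116 alone (-0.17).

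Genes beside the enzymes on the chromosome, in RefSeq order and picked after the results were seen, were higher with miR-891b in HCT116 in 6 of 7 measured cases and in A549 in 4 of 8. The other 1 of 7 and 4 of 8 were lower, where 55.5% (HCT116) and 55.6% (A549) of all measured genes were lower. Beside PHGDH, the zinc finger gene ZNF697 changed by 0.47 in HCT116 and 0.35 in A549. Beside PSAT1, the G protein subunit gene GNAQ changed by 0.22 and 0.40, and CEP78, a centrosomal protein, by 0.30 and -0.91. TLE4 and TLE1, transcriptional corepressors on the other side, changed by 0.55 in A549 (TLE4) and by 0.0048 and -0.026 (TLE1). Beside PSPH, the chaperonin subunit CCT6A changed by 0.077 and -0.73, the mitochondrial ribosome gene MRPS17 by 0.27 and -0.55 (stray signal at its spot, 11.6%), and SUMF2 by -0.48 and 0.21.

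The sequence before the transcript start was available for 2 of the 3 enzymes, and the 250 bases before it are printed because PHGDH and PSAT1 were the enzymes past 2-fold in A549. They come from RefSeq on GRCh38.p14, chr9:78296875-78297124 for PSAT1 and chr1:119711684-119711933 for PHGDH, both on the plus strand. Capitals mark CCAAT, the box bound by the factor NF-Y, a motif chosen after these sequences had been seen.
PSAT1 promoter: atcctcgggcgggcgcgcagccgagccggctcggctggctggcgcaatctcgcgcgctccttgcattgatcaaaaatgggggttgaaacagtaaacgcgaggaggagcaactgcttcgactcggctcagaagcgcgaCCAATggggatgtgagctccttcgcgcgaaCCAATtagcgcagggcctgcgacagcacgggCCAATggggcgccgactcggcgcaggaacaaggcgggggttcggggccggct
PHGDH promoter: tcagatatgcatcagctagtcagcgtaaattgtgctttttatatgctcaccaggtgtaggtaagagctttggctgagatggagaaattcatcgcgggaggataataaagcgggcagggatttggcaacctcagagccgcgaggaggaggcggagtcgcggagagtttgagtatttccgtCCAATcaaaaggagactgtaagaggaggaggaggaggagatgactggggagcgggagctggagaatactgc
Motifs were searched on both strands. PSAT1 held 3 CCAAT boxes, 113, 83 and 52 bases before the start, and PHGDH held 1, 71 bases before it. Of 35116 promoters of this length, 32.0% held at least 1 and 2.93% held at least 3. The letters TGATGNAA, the core of the element bound by ATF4 with C/EBP factors, were not in either window and occurred in 3.14% of promoters. CACGTG, the E-box of MYC and MAX, was also in neither and occurred in 6.34%. With no match to either, no motif overlapped another.

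The enzymes were next set among 7 lists of genes around the pathway. In A549, PHGDH and PSAT1 passed 2-fold. Each of the 7 lists had 0 to 2 of its 8 to 21 measured genes at least 2-fold lower there, and 0 to 2 at least 2-fold higher. Over all genes in A549, 5.57% were at least 2-fold lower and 9.57% passed in either direction. In HCT116 all 7 lists had medians below that of all genes. Counts and medians below are over the measured genes of each list and stand beside the all-gene medians of -0.041 and -0.058, without a test of the list.

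Upstream of PHGDH, 10 of 11 genes of glycolysis around 3-phosphoglycerate were measured in each line. All 10 were below 0 in HCT116, where 55.5% of all measured genes were, with a median of -0.18 and none past 2-fold, and 8 of 10 were below 0 in A549 (55.6% of all genes), with a median of -0.45. GAPDH, which oxidises glyceraldehyde 3-phosphate, had levels of 9.14, 9.02, 9.05 and 7.995 (HCT116 NC1, HCT116 miR-891b, A549 NC1, A549 miR-891b). The kinase PGK1, which makes 3-phosphoglycerate, had 7.62, 7.09, 7.75 and 6.72. Each had its lowest level in A549 with miR-891b, and both were past 2-fold there, with changes of -1.05 for GAPDH and -1.03 for PGK1. Neither passed it under quantile normalization (-0.62 and -0.67), normexp with quantile normalization (-0.58 and -0.65) or median scaling (-0.99 and -0.97), and the A549 list median moved to between -0.39 and -0.074 under those 3. Stray signal surrounded the GAPDH spot on HCT116 miR-891b (13.6% of dim neighbours marked). The mutase PGAM1, which takes 3-phosphoglycerate on down glycolysis, changed by -0.23 and -0.53. The mutase gene PGAM2 changed by -0.0072 and -0.49, and PGAM4, a close copy of PGAM1, by -0.11 and -0.53.

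Of 9 transporters that carry serine, 7 were measured in HCT116 and 8 in A549, and 0 were past 2-fold in either direction in either line. Their medians were -0.21 and 0.024. The neutral amino acid carrier SLC1A5 changed by -0.45 in HCT116 and -0.15 in A549, SLC38A1 by -0.061 and -0.0033, and SLC38A2 by 0.12 and 0.41. The mitochondrial serine carrier SFXN1 was measured in both lines and changed by -0.24 and -0.41. SLC1A4 was well above background on both arrays in A549 alone, where it changed by 0.46.

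Enzymes that use serine and glycine went both ways around medians close to those of all genes. Of the 22 found on the array, 20 were measured in HCT116 (12 below 0, median -0.087, 0 past 2-fold) and 21 in A549 (13 below 0, median -0.085). SHMT2, the mitochondrial enzyme that splits serine to glycine, had levels of 6.36, 6.09, 4.90 and 4.62 and changed by -0.27 and -0.28. Its cytosolic partner SHMT1 changed by -0.33 and -0.91, and the folate enzyme MTHFD1 by -0.23 and -0.64, both more in A549. MTHFD1L changed by 0.15 and -0.043. GLDC, which cleaves glycine, had levels of 0.050, 0.40, 1.98 and 0.81. It was the one gene of the list at least 2-fold lower in A549 (-1.17), and it changed by 0.35 in HCT116. With normexp and quantile normalization its A549 change was -0.81, short of 2-fold. SPTLC3, a subunit of the enzyme that joins serine to fatty acid, was higher by 2.03 in A549 and not well above background in HCT116.

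PSAT1 shares glutamate as its amino donor with other aminotransferases. The list used here also holds enzymes with a different amino donor, among them GFPT1 and AGXT. Of 14 found, 10 were measured in HCT116 and 11 in A549, and 0 were past 2-fold in either direction in either line, with medians of -0.19 and -0.027. The aspartate aminotransferases GOT1, in the cytosol, and GOT2, in mitochondria, changed by -0.40 and -0.86 (GOT1) and by -0.071 and -0.29 (GOT2). The alanine aminotransferase GPT2 changed by -0.45 and 0.29, and the branched-chain aminotransferase BCAT2 by -0.18 and -0.34. No other measured member of this list was as low as PSAT1 in either line.

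Among 12 genes that supply or use glutamate and 2-oxoglutarate, 11 were measured in HCT116 and 10 in A549. GLUL, which turns glutamate into glutamine, changed by -0.40 and 0.79, and GLUD1, glutamate dehydrogenase, by 0.046 and -0.16. The list medians were -0.22 and 0.058.

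Of 19 regulators of the serine synthesis genes, 16 were measured in HCT116 and 17 in A549, with medians of -0.23 and 0.11. ATF4, the activator named above, had levels of 8.89, 8.53, 7.79 and 7.31, lower with miR-891b in both lines by less than 2-fold (-0.36 and -0.48). The kinases upstream of ATF4 went both ways in A549. EIF2AK1 changed by -0.44 and -0.094, EIF2AK2 by -0.019 and -0.30, EIF2AK3 by -0.20 and 0.75, and EIF2AK4 by 0.011 and 0.48. The EIF2AK2 spot lay in an area of stray signal on A549 miR-891b (30.9%). MYC changed by -0.11 and -0.089. NUPR1, a stress-induced chromatin protein, had levels of 0.90, -0.97, 2.51 and 4.64. It was past 2-fold in opposite directions, by -1.86 in HCT116 and 2.13 in A549. DDIT3, the stress factor CHOP, had levels of 0.80, 0.19, -0.54 and 1.02 and changed by -0.61 and 1.56, with its spot in an area of stray signal on HCT116 miR-891b (12.1%). The MYC spot was in one on HCT116 NC1 (12.3%). With normexp and quantile normalization NUPR1 in HCT116 (-0.93) and DDIT3 in A549 (0.99) were short of 2-fold. The differences between the lines for these genes were not tested.

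Genes of the list for ATF4-linked amino acid synthesis and transport were mostly lower in HCT116 and went both ways in A549. The list also holds genes with other roles, among them CHAC1, DDIT4 and ATF3. In HCT116, 13 of 14 were measured and 11 were below 0, against 55.5% of all genes. Of these 13, 3 were at least 2-fold lower (0.853% of all genes) and 0 higher, and the median was -0.41. These 3 were ASNS, the asparagine synthetase (-1.05), CHAC1, which degrades glutathione (-1.54), and DDIT4, an inhibitor of mTORC1 (-1.24). HCT116 miR-891b carried stray signal around the spots of DDIT4 (15.9% of dim neighbours marked) and SLC7A1 (13.9%), and its part in their changes was not tested. In A549 all 14 were measured, 9 were below 0, against 55.6% of all genes, and the median was -0.26. There the arginine and lysine carrier SLC7A1 was at least 2-fold lower (-1.15) and ATF3 (1.26) and the glycine transporter SLC6A9 (1.101) were at least 2-fold higher. ASNS had levels of 7.46, 6.40, 4.97 and 4.26, lower with miR-891b in both lines, with a change of -0.71 in A549. Under quantile normalization ASNS was short of 2-fold in HCT116 (-0.96), and with normexp added so were ASNS (-0.97) and SLC7A1 in A549 (-0.78). The proline synthesis genes PYCR1 and ALDH18A1 changed by -0.37 and 0.44 (PYCR1) and by 0.081 and -0.42 (ALDH18A1). The cystine carrier SLC7A11 changed by -0.41 and -0.40, and SLC7A5, which carries large neutral amino acids, by -0.45 and -0.55.

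**Figure D4:**
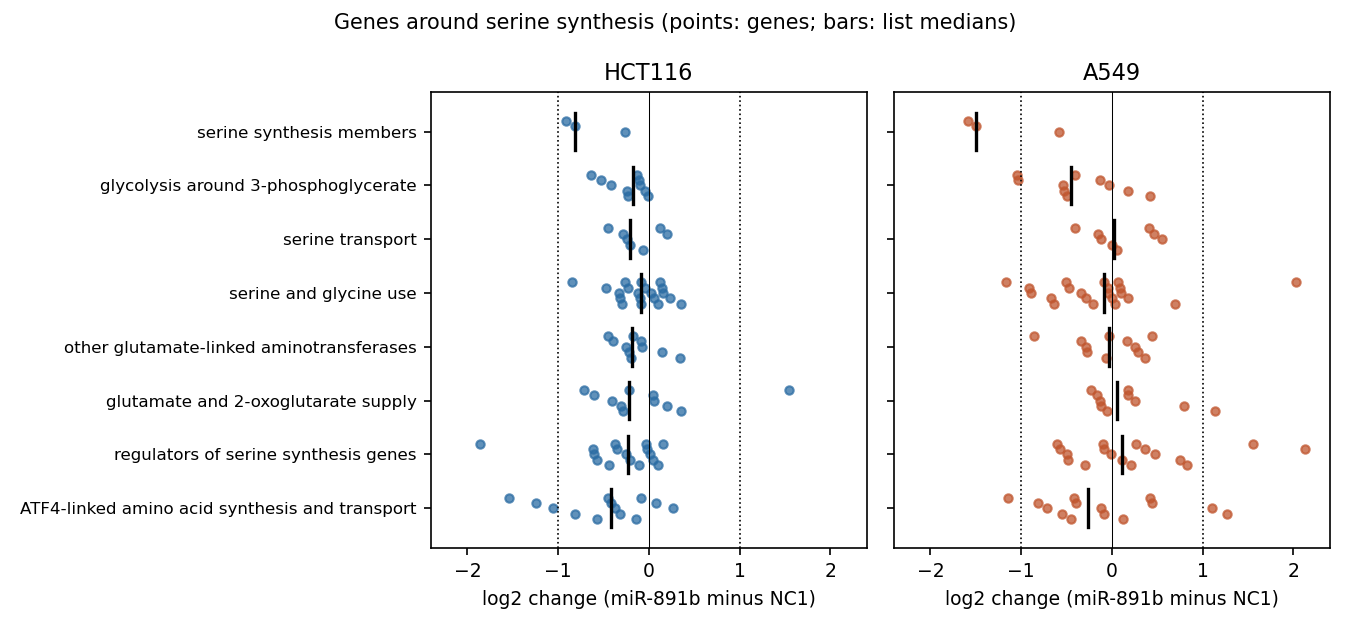
Log2 change with miR-891b (x axis) of every measured gene of the enzymes and the 7 lists, in HCT116 (left) and A549 (right), with a point for each gene, a black bar for the list median and dotted lines at 2-fold. The enzymes' medians (-0.81 and -1.50) lie left of the medians of all 7 lists, which range from -0.41 to -0.087 in HCT116 and from -0.45 to 0.11 in A549.

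Genes whose pattern over the 4 arrays was most like that of each enzyme were found by Euclidean distance after centring each gene on its own mean, over 13419 named genes measured in both lines. Nearest to PSAT1 was PAX6, a transcription factor, at 0.15, with changes of -0.71 and -1.74. TMBIM1 (0.23), FIBP (0.25), ERO1L (0.27) and SERPINA1 (0.29) followed, where the median distance of all genes was 1.55. The ERO1L spot lay in an area of stray signal (23.1%). PSPH was 1.20 and PHGDH 2.77 away from PSAT1. Nearest to PHGDH were NRARP (0.37), ZNF165 (0.51) and DHDH (0.53), with a median of 3.62, and nearest to PSPH were TOMM34 (0.062), FAM171A2 (0.062) and GATAD2A (0.070), with a median of 1.66. These distances rest on 4 arrays and are a description.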

How the data were processed

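Gene expression was measured on 4 arrays, 1 per group, grouped by the sample titles. Per the file headers, Feature Extraction 11.5.1.1 quantified the scans, subtracted background and removed spatial trends, and the deposited scanner files hold intensity values with no scaling between arrays. The authors' deposited table of processed values holds log2 values. On each array these were within a median of 0.0076 of the scale used here (largest difference 0.11).

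After removal of spots with outlier marks, the log2 processed signal was averaged per probe, and the array's 75th percentile over gene probes was subtracted. A gene was its brightest probe. Changes were called by size at 2-fold. limma 3.58.1 in R 4.3.3 fitted all genes well above background on at least 2 arrays, and this step was tested on simulated data. The changes planted there were larger than those of the enzymes. The simulation therefore does not show whether the fit could call changes of the enzymes' size. Python 3.11.15, numpy 2.4.6 and pandas 2.3.3 gave the remaining values. Probes printed at 5 or more spots had a median SD of the log2 difference of 0.061 (HCT116) and 0.071 (A549). Stray signal areas were those where at least 10% of the spots dim elsewhere, up to 10 rows and columns away, had signal well above background.

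Named genes were the enzymes, list genes past 2-fold, up to 4 further genes per list, measured in both lines, in written order, and the nearest patterns (5 for PSAT1, 3 for the other enzymes). EIF2AK4, MYC, SFXN1, SLC1A4, chromosomal neighbours, pseudogenes and genes at least as low as the enzymes were added after their values were seen. Pseudogenes were matched by the array's descriptions. The enzymes, lists and markers were chosen with earlier results of these data known. Some items that these rules select are left out of the text.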

Additional observations from a re-analysis of the deposited data

Results flagged for a closer look

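Genes of the lists that were past 2-fold in 1 line and moved the opposite way in the other were picked out. GLDC changed by 0.35 in HCT116 and -1.17 in A549, DDIT3 by -0.61 and 1.56, NUPR1 by -1.86 and 2.13, SLC6A9 by -0.81 and 1.101, and ATF3 by -0.32 and 1.26. The DDIT3 spot lay in an area of stray signal on HCT116 miR-891b (12.1%). Each direction rests on 1 array per group and the differences between the lines were not tested. PHGDH, PSAT1 and PSPH were not among them, as all 3 were lower in both lines.

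Of 308 negative control spots on each array, which should carry no signal, the HCT116 miR-891b array had 11 well above background and the A549 miR-891b array had 2, against 0 on both NC1 arrays. Areas of stray signal held 10.5% of the gene spots of HCT116 miR-891b, the PHGDH spot among them, and 2.20% of those of HCT116 NC1. The part of this signal in the changes was not tested.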

How the results depend on the processing

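With 1 array per group, no error here covers cultures, transfections or labelling. With 1 sample per group no replicate could be left out, and the only pairing is that of the arrays within a line, which the cell line term of the limma fit takes up. The alternatives were normexp with quantile normalization, quantile normalization, median scaling, the authors' processed values, the mean over probes, and outlier-marked spots kept. Under all 6 the changes of PSAT1 (HCT116 -0.81 to -0.71, A549 -1.58 to -1.39), of PSPH (-0.27 to -0.17 and -0.59 to -0.43) and of PHGDH in HCT116 (-0.92 to -0.84) kept their direction and their side of 2-fold. Not all 6 could move the enzymes. Each enzyme had 1 probe, so the mean over probes gave the same value. No enzyme spot had an outlier mark, so keeping marked spots could shift only the array scale. The authors' values lay within a median of 0.0076 of the scale used here. PHGDH in A549 was -0.89, short of 2-fold, with normexp and quantile normalization and -1.50 to -1.43 under the other 5. The normexp setting adds an offset of 50 to each corrected signal, which shrinks the changes of dim spots more than those of bright ones. PHGDH had signals of 218 (NC1) and 76.7 (miR-891b) in A549, and the part of the offset in its value was not tested. The 385 genes past 2-fold in HCT116 became 43, and the 2043 in A549 became 763, with normexp and quantile normalization. They became 4228 and 6015 with no filter on dim probes, and 1830 and 5627 at 1.5-fold. Without areas of stray signal, a setting added after the data were seen, they were 272 and 1724, and PHGDH was left out. The additive limma fit called 3 genes with no filter, all higher, and 0 under its other alternatives, where 69 to 1211 genes had an unadjusted p under 0.05. Without the cell line as a term, the limma adjusted p of all 3 enzymes was 1.00. In A549 the median of the other aminotransferases was 0.044 with normexp and quantile normalization, 0.12 with quantile normalization and 0.035 with median scaling, against -0.027. The median of serine and glycine use was 0.0017 with normexp and quantile normalization, against -0.085.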
